A study of Homo sapiens with 12 samples.

Results

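Metallothioneins and the transporters that carry zinc, manganese and iron across cell membranes were followed as a group of 10 genes, picked by symbol from the 28901 named genes of the count table. They comprise the metallothioneins MT1E, MT1F, MT1M, MT1X and MT2A, the metal importers SLC39A8 and SLC39A14, and the iron genes SLC40A1, TFRC and STEAP4, and all 10 were found in the table. The rule uses symbols and no measured value, although it was set with earlier results of these data known. The study examined what depletion of the adipose lincRNA linc-ADAIN changes in human adipocytes, at rest and after the bacterial lipid lipopolysaccharide (LPS). RNA-seq was performed on cells of ASC52telo hTERT, a line of human adipose stromal cells immortalized with telomerase, grown as adipocytes to day 14.

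The scramble control expressed scramble shRNA and the linc-ADAIN-KD cells an shRNA against linc-ADAIN, each from a lentiviral vector with ZsGreen by which transduced cells were sorted. Both were measured untreated and after LPS (100 ng/mL for 4 h), which makes 4 groups of 3 libraries. All groups had received insulin, dexamethasone, isobutylmethylxanthine and rosiglitazone to start differentiation, and insulin and dexamethasone in the second week. All cells are of 1 line and 1 experiment in triplicate gave the 3 libraries of each group, so p-values measure the spread within it. KD and scramble are separately transduced populations, and a difference between these populations cannot be told apart from KD. The lincRNA's own level was not analysed here.

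Metallothioneins are small cysteine-rich proteins that bind zinc and copper. Zinc induces their genes through the transcription factor MTF1, which binds metal response elements (MREs) in the promoters, and glucocorticoids induce MT2A and some others. SLC39A8 and SLC39A14 import zinc, manganese and iron, and SLC39A14 is well known as a zinc importer that rises in inflamed tissue. Iron bound to transferrin enters cells by the transferrin receptor TFRC and leaves through ferroportin, SLC40A1, while STEAP4 is a metalloreductase that was first described in fat as a gene induced by TNF.

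The 5 metallothionein genes lie on the plus strand of chromosome 16 in GRCh38 (GENCODE annotation), in the order MT2A (56608584 to 56609497), MT1E (56625475 to 56627112), MT1M (56632659 to 56633981), MT1F (56657731 to 56660698) and MT1X (56682470 to 56684196). The other genes are dispersed, with SLC39A8 on chromosome 4, SLC40A1 on chromosome 2, TFRC on chromosome 3 and STEAP4 on chromosome 7. The promoters of MT2A and MT1X, the most abundant metallothioneins of these cells, are shown to let their MREs be seen. Each runs 5′ to 3′ from 250 bases before the start of transcription to 50 bases after it (RefSeq, GRCh38.p14), at chr16:56608334-56608633 (+) for MT2A and at chr16:56682220-56682519 (+) for MT1X. Capitals mark the core letters of an MRE, searched as TGCACNC and TGCGCNC on both strands.
MT2A: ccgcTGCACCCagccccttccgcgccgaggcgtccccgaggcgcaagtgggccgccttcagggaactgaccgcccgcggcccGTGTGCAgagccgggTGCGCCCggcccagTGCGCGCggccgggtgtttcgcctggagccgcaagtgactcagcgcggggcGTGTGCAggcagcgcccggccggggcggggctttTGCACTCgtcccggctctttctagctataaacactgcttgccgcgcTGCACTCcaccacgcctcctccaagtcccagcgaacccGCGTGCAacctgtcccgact
MT1X: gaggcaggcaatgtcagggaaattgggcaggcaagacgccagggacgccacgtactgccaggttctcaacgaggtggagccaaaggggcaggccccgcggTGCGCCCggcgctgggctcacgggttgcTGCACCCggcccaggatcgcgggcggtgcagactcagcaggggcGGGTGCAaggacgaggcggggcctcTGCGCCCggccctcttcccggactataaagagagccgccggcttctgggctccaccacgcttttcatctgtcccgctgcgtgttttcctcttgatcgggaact

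MT2A held 8 such cores and MT1X 4. Of 35116 RefSeq promoters of the same length, 0.0199% held 8 or more, 0.601% held 4 or more and 29.6% held at least 1. TFRC had 3 cores, 2 of which overlap on opposite strands, SLC40A1 had 2, and SLC39A8 had 1 at 1 of its 3 annotated starts. STEAP4 had 0. These are matches of letters and not measured sites.

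Reads on near-identical genes can be split between them, and this touches the metallothioneins more than the transporters. Of the stretches of 31 bases in each main transcript, the length kallisto uses by default, 54.0% of those in MT1X, 40.5% in MT1M, 31.5% in MT2A, 22.6% in MT1E and 13.9% in MT1F also occur in another gene. For MT1X the largest share, 36.4%, is with the overlapping lncRNA ENSG00000259827, and for MT1M 29.1% is with the pseudogene MT1JP. SLC39A8, SLC39A14, SLC40A1 and TFRC share 0%, and STEAP4 shares 9.14%.

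Libraries held 28.4 to 53.8 M counts (M, units of 1e6) on named genes. Of the 10 adipocyte markers checked, including ADIPOQ and FABP4, none was at 0 in a whole group, but LPL had at most 82 counts and LEP at most 21. Their summed level was 3200 to 4427 CPM (counts per 1e6) in scramble and 642 to 1880 CPM in KD without LPS, and 3702 to 4288 CPM and 519 to 1206 CPM with LPS. In KD, 7 of the 10 adipocyte markers were lower and 0 higher without LPS, and 8 were lower and 0 higher with LPS. Of all genes tested, 15.1% were lower and 12.1% higher in KD without LPS, and 14.2% and 12.7% with LPS. ADIPOQ, for example, was at 919 ± 208 CPM in scramble and 349 ± 190 CPM in KD without LPS (SD, n = 3 each). The paper reports the opposite direction for cells of this line, where KD raised adipogenic markers, including PPARγ, C/EBPα and adiponectin, in mRNA and protein. The reason for this difference was not tested. The stromal markers summed to 5266 to 6317 CPM in scramble and 7308 to 8268 CPM in KD without LPS, and 4991 to 5656 CPM and 8549 to 9630 CPM with LPS. DCN carried much of this sum, at 2671 ± 487 CPM in scramble and 4904 ± 413 CPM in KD without LPS (SD, n = 3 each). The list did not move as a whole, since of 9 stromal markers tested 4 were higher and 3 lower in KD without LPS, and 5 were higher and 3 lower with LPS. The shares of all genes beside these are those given above for the adipocyte markers. THY1, for example, was at 764 ± 36.6 CPM in scramble and 148 ± 22.6 CPM in KD without LPS, and PDGFRB at 977 ± 47.5 and 523 ± 34.9 CPM (SD, n = 3 each). Leukocyte markers stayed at 27.7 to 69.2 CPM in sum, most of it CD68, with PTPRC at 0 to 12 counts, and endothelial markers at 8.45 to 27.1 CPM. These marker differences accompany every comparison of KD with scramble below, and their part in those results was not tested. In these bulk samples fewer cells of a type and less RNA per cell cannot be told apart. As a check of the LPS treatment, the known target genes NFKBIA, TNFAIP3, ICAM1, CXCL8 and SOD2 rose in scramble and in KD, with log2 fold changes of 1.17 to 2.70 and of 1.19 to 2.36.

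Expressed per kilobase of the main transcript, MT2A was by far the most abundant of the group. In scramble it stood at 2563 CPM per kilobase, followed by MT1X at 315, MT1E at 135, TFRC at 78.0, SLC39A14 at 62.1, MT1M at 17.6, SLC39A8 at 7.61, SLC40A1 at 1.48 and STEAP4 at 0.449 CPM per kilobase, with MT1F last. No neighbours in this order overlapped between libraries. With LPS, SLC39A14 stood above TFRC in both cell populations. In KD, STEAP4 stood above SLC40A1 with and without LPS, and without LPS the libraries of SLC39A14 and TFRC overlapped, as did those of MT1M and SLC39A8. The order depends on the length used. With the median length of the coding transcripts, 578 bases for SLC39A14, that gene ranked 2 in scramble.

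MT1F was at the limit of detection. It had 0, 0 and 3 counts in scramble, 2, 1 and 0 in scramble with LPS, 5, 7 and 1 in KD, and 17, 2 and 5 in KD with LPS. It did not reach 10 counts in the comparison of LPS in scramble and was not called in the others, so no fold is given.

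**Figure D1:**
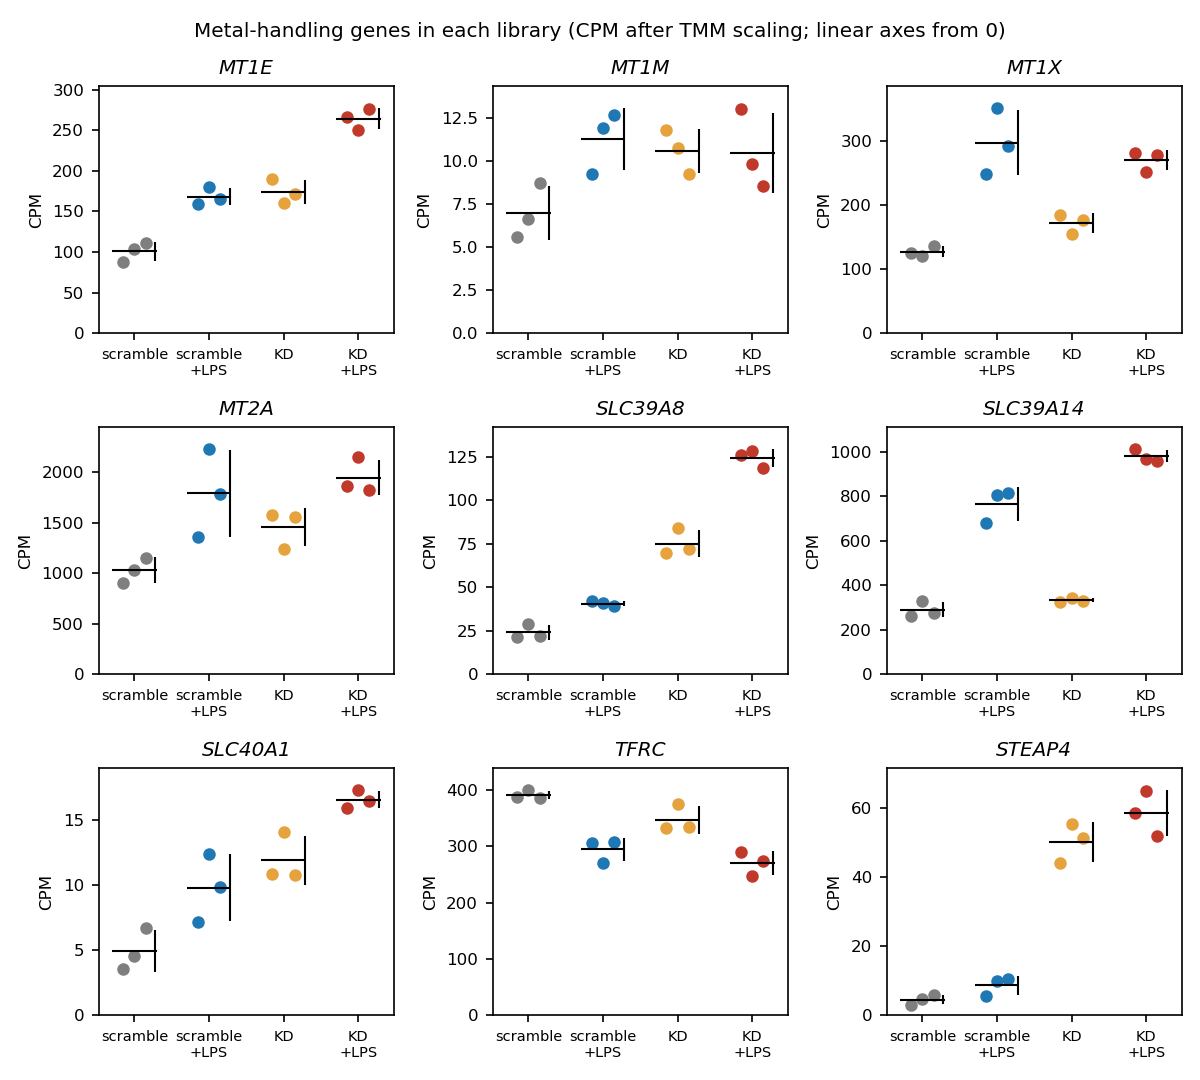
CPM after TMM scaling (a scaling between libraries that allows for a few very abundant genes) of 9 of the genes on linear axes from 0, with 1 point per library, the mean as a horizontal line and 1 SD as a vertical line, for scramble, scramble with LPS, KD and KD with LPS. STEAP4 and SLC39A8 separate KD from scramble at both LPS conditions, SLC39A14 separates LPS from no LPS, and TFRC is lowest where LPS was added. MT1F is left out, with at most 17 counts in a library.

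KD of linc-ADAIN without LPS was accompanied by higher transcripts of 4 metallothioneins, of the importer SLC39A8, of the exporter SLC40A1 and of STEAP4. Of the 10 genes tested, 7 were higher and 0 lower at an adjusted p under 0.05 by edgeR's test, against 27.2% of all 16217 genes called, 12.1% higher and 15.1% lower. The share among these genes is above that of all genes, but they were chosen with earlier results of these data known. The metallothioneins among them also share sequence. The median log2 fold change was 0.70, and that of all genes was 0.02. In 8 of the 10 the KD and scramble libraries did not overlap, against 42.5% of all genes. Of the 7, 3 rose at least 2-fold, STEAP4, SLC39A8 and SLC40A1, as did 4.28% of all genes at the same adjusted p.

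STEAP4 had the largest difference. It was at 3.02, 4.58 and 5.84 CPM in the scramble libraries and at 44.05, 55.3 and 51.3 CPM in the KD libraries, from 159 to 272 and from 1529 to 2977 counts. Every KD library lay far above every scramble library. The rise was 11.3-fold, a log2 fold change of 3.49 (standard error, SE, 0.20, adjusted p = 2.1e-07).

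SLC39A8 stood at 21.1, 28.9 and 22.0 CPM in scramble and at 69.3, 84.0 and 71.7 CPM in KD. The groups were well apart. Its log2 fold change was 1.65 (SE 0.13, adjusted p = 1.8e-06), 3.14-fold. The other importer, SLC39A14, was at 263, 328 and 277 CPM in scramble and at 324, 342 and 329 CPM in KD, with overlap at the second scramble library. Its log2 fold change of 0.20 (SE 0.09) had an adjusted p of 0.12 and was not called. It passed, at 0.30 (adjusted p = 0.033), without scramble replicate 2, and at 0.30 (adjusted p = 0.028) with scaling by library size alone, a scaling that by itself moved the median of all genes up by 0.10.

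SLC40A1, the iron exporter, was low. Its scramble libraries were at 3.55, 4.55 and 6.66 CPM and its KD libraries at 10.9, 14.1 and 10.7 CPM, without overlap. The log2 fold change was 1.28 (SE 0.22, adjusted p = 0.0012). TFRC, which brings iron in, was at 387, 400 and 386 CPM in scramble and at 332, 375 and 334 CPM in KD. All 3 KD libraries lay below the scramble libraries, but by little. The log2 fold change was -0.17 (SE 0.07) with an adjusted p of 0.12, which became 0.040, at -0.23, without KD replicate 2 and 0.60, at -0.064, with scaling by library size alone.

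Among the metallothioneins, MT1E had the largest rise called in KD without LPS. It was at 87.4, 104 and 111 CPM in scramble and 190, 160 and 171 CPM in KD, a log2 fold change of 0.79 (SE 0.10, adjusted p = 0.00011). MT2A was at 901, 1028 and 1154 CPM in scramble and 1572, 1235 and 1555 CPM in KD (log2 fold change 0.50, SE 0.11, adjusted p = 0.0049). MT1X was at 124, 121 and 137 CPM in scramble and 184, 155 and 176 CPM in KD (log2 fold change 0.44, SE 0.09, adjusted p = 0.0026). For each of these 3 the lowest KD library, replicate 2, still lay above the highest scramble library. MT1M, with 296 to 580 counts in these libraries, was at 5.62, 6.66 and 8.72 CPM in scramble and 11.8, 10.8 and 9.26 CPM in KD. Its log2 fold change of 0.60 (SE 0.19, adjusted p = 0.030) passed, but the adjusted p was 0.11 without scramble replicate 1, 0.10 without scramble replicate 2, 0.098 without KD replicate 1 and 0.073 without KD replicate 2, with log2 fold changes of 0.47, 0.57, 0.52 and 0.59.

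With LPS present, both importers, SLC40A1 and STEAP4 were higher in KD than in scramble, while MT1E was the only metallothionein called. Of the 10 genes tested, 5 were higher in KD (MT1E, SLC39A8, SLC39A14, SLC40A1 and STEAP4) and 0 lower, against 26.9% of all 15981 genes called, 12.7% higher and 14.2% lower. SLC39A8 and STEAP4 were at least 2-fold higher, as were 4.58% of all genes. In 5 the libraries did not overlap, against 40.6% of all genes. The median log2 fold change was 0.50, and 0.03 over all genes.

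STEAP4 was at 5.42, 10.01 and 10.4 CPM in scramble with LPS and at 58.6, 65.1 and 52.0 CPM in KD with LPS. The 6.82-fold difference (log2 fold change 2.77, SE 0.20, adjusted p = 2.0e-07) separated all libraries. SLC39A8 was at 41.8, 40.6 and 39.1 CPM and at 126, 128 and 119 CPM. Both sets were tight, and the log2 fold change was 1.62 (SE 0.08, adjusted p = 8.1e-09). SLC39A14 was at 678, 805 and 815 CPM against 1011, 969 and 960 CPM, all higher in KD (log2 fold change 0.35, SE 0.08, adjusted p = 0.0041). SLC40A1 was at 7.18, 12.4 and 9.87 CPM against 16.0, 17.3 and 16.4 CPM. Its log2 fold change was 0.76 (SE 0.18, adjusted p = 0.0060), again without overlap.

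MT1E reached 159, 180 and 165 CPM in scramble with LPS and 266, 251 and 276 CPM in KD with LPS (log2 fold change 0.65, SE 0.08, adjusted p = 2.5e-05). It was thus the metallothionein that separated KD from scramble at both LPS conditions. The abundant MT2A was at 1361, 2225 and 1785 CPM against 1868, 2146 and 1824 CPM, and the scramble libraries enclosed those of KD. Its log2 fold change was 0.12 (SE 0.13, adjusted p = 0.58), and it turned to -0.04 without scramble LPS replicate 1. MT1X was at 249, 351 and 293 CPM against 281, 252 and 278 CPM, with a log2 fold change of -0.14 (SE 0.11, adjusted p = 0.38). MT1M had a log2 fold change of -0.11 (SE 0.19, adjusted p = 0.75), and TFRC of -0.12 (SE 0.08, adjusted p = 0.32). Both overlapped between the groups.

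**Figure D2:**
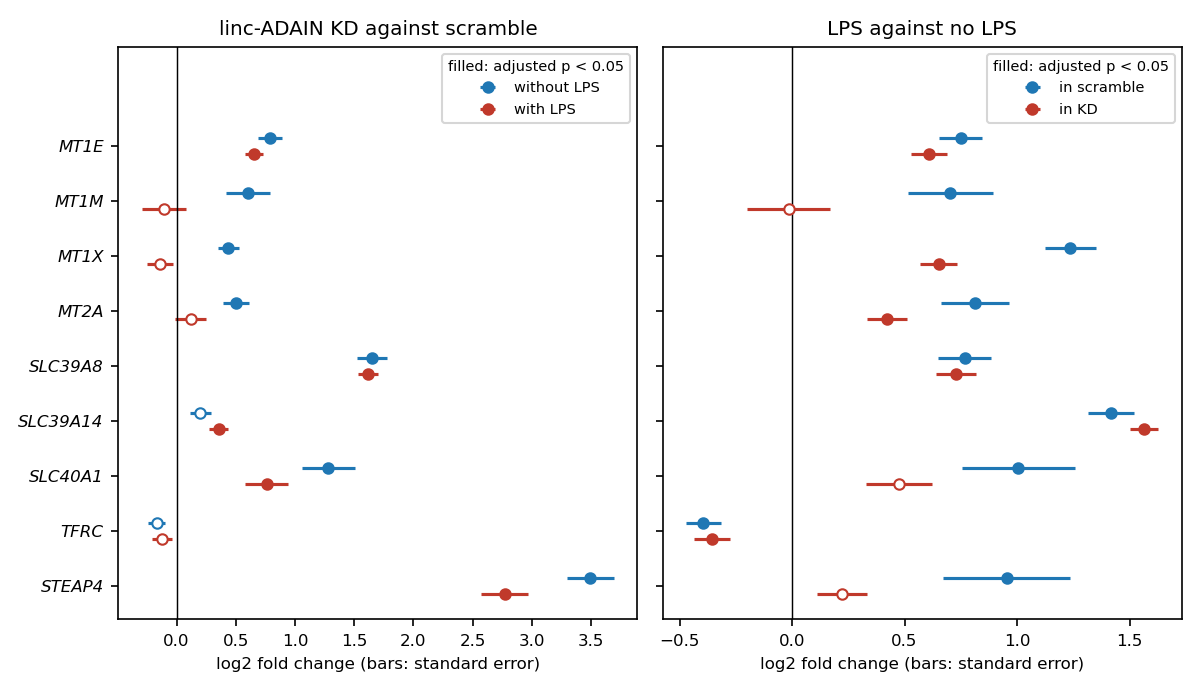
Log2 fold changes with standard errors for 9 of the genes, KD against scramble on the left (blue without LPS, red with LPS) and LPS against no LPS on the right (blue in scramble, red in KD). Filled points have an adjusted p under 0.05. STEAP4, at 3.49 and 2.77, and SLC39A8, at 1.65 and 1.62, lie farthest right for KD, and SLC39A14, at 1.42 and 1.56, does so for LPS. TFRC is the gene left of 0 in all 4 comparisons, filled for LPS.

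LPS in scramble cells raised metallothioneins and importers and lowered TFRC. Of the 9 genes tested, 8 were higher and 1 lower, against 14.3% of all 15920 genes called, 5.9% higher and 8.38% lower. MT1X, SLC39A14 and SLC40A1 were at least 2-fold higher, as were 1.4% of all genes. In 8 the libraries with and without LPS did not overlap, against 32.1% of all genes. The median log2 fold change was 0.81, and 0.02 over all genes. This comparison shares its libraries with those above, so it is not independent of them.

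The largest rise was that of SLC39A14, from 263, 328 and 277 CPM to 678, 805 and 815 CPM. Every LPS library lay far above every library without LPS, and the log2 fold change was 1.42 (SE 0.10, adjusted p = 3.8e-06). SLC39A8 rose from 21.1, 28.9 and 22.0 CPM to 41.8, 40.6 and 39.1 CPM (log2 fold change 0.77, SE 0.12, adjusted p = 0.0011). Of the metallothioneins MT1X rose most, from 124, 121 and 137 CPM to 249, 351 and 293 CPM, a log2 fold change of 1.24 (SE 0.11, adjusted p = 2.2e-05). MT2A rose by 0.81 (SE 0.15, adjusted p = 0.0038) and MT1E by 0.75 (SE 0.10, adjusted p = 0.00027) on the log2 scale. TFRC fell from 387, 400 and 386 CPM to 307, 271 and 307 CPM, a log2 fold change of -0.39 (SE 0.08, adjusted p = 0.0048). None of these 6 lost its call when a library was left out.

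The 3 genes with few counts held less firmly. MT1M had a log2 fold change of 0.70 (SE 0.19, adjusted p = 0.028), SLC40A1 of 1.01 (SE 0.25, adjusted p = 0.020) and STEAP4 of 0.95 (SE 0.28, adjusted p = 0.043). STEAP4 libraries overlapped, since the first LPS library, at 5.42 CPM, lay below the third library without LPS, at 5.84 CPM. Each of the 3 calls was lost without scramble replicate 1, scramble replicate 2, scramble LPS replicate 2 or scramble LPS replicate 3. The adjusted p in those 4 fits was, in that order, 0.094, 0.11, 0.077 and 0.11 for MT1M, 0.066, 0.083, 0.082 and 0.064 for SLC40A1, and 0.13, 0.12, 0.13 and 0.16 for STEAP4. Replicate 1 was the lowest library of its group for 7 of the 9 genes in scramble and for 7 of the 9 in scramble with LPS.

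LPS in KD cells raised both importers, MT1E, MT1X and MT2A, and lowered TFRC. Of the 10 genes tested, 5 were higher and 1 lower, against 11.3% of all 16169 genes called, 5.32% higher and 6.03% lower. SLC39A14 was at least 2-fold higher, as were 1.3% of all genes. In 7 the libraries did not overlap, against 27.3% of all genes. The median log2 fold change was 0.54, and 0.01 over all genes.

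SLC39A14 rose from 324, 342 and 329 CPM to 1011, 969 and 960 CPM (log2 fold change 1.56, SE 0.06, adjusted p = 5.6e-10). The spread within each group was small beside the rise. SLC39A8 rose by 0.73 (SE 0.09, adjusted p = 6.2e-05), MT1X by 0.65 (SE 0.08, adjusted p = 9.1e-05) and MT1E by 0.61 (SE 0.08, adjusted p = 0.00014) on the log2 scale. MT2A rose by 0.42 (SE 0.09, adjusted p = 0.0056), a call that was lost, at an adjusted p of 0.059, when the spread was estimated over all 12 libraries. TFRC went from 332, 375 and 334 CPM to 290, 248 and 275 CPM (log2 fold change -0.36, SE 0.08, adjusted p = 0.0090). SLC40A1 was higher in every LPS library, but its log2 fold change of 0.48 (SE 0.15) had an adjusted p of 0.054. That p was 0.022 without KD replicate 2, at a log2 fold change of 0.61, 0.041 by DESeq2, 0.041 without a filter on low counts and 0.032 with the replicate number as a block. STEAP4 had a log2 fold change of 0.22 (SE 0.11, adjusted p = 0.25) and MT1M of -0.01 (SE 0.18, adjusted p = 0.98), with overlap in both.

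Whether the response to LPS differed between KD and scramble was tested as an interaction over all 12 libraries. Of the 10 genes, edgeR called 0, against 1.28% of all 17173 genes. MT1M, MT1X and STEAP4 had an unadjusted p under 0.05 by edgeR, and DESeq2 called MT1X. The shares of all genes that met these other rules are not given here, so no excess is read from them. The interaction of MT1X was -0.57 on the log2 scale (SE 0.15), in the direction of a smaller rise in KD, with an adjusted p of 0.070 by edgeR. The adjusted p was 0.0085 by DESeq2 and 0.0085 without a filter on low counts. It was 0.016 without scramble LPS replicate 1 and 0.048 without KD replicate 2. STEAP4 had an interaction of -0.72 (SE 0.30, adjusted p = 0.36), MT1M of -0.71 (SE 0.28, adjusted p = 0.31), SLC40A1 of -0.52 (SE 0.30, adjusted p = 0.57) and MT2A of -0.38 (SE 0.20, adjusted p = 0.50). For SLC39A8 it was -0.03 (SE 0.15), for TFRC 0.05 (SE 0.11), for SLC39A14 0.16 (SE 0.12) and for MT1E -0.13 (SE 0.13). A call in 1 cell population and not in the other does not show a difference between them.

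Summed over the 5 genes, metallothionein transcripts were at 1263 ± 146 CPM in scramble, 2267 ± 495 CPM in scramble with LPS, 1810 ± 217 CPM in KD and 2491 ± 146 CPM in KD with LPS (SD, n = 3 each). The scramble libraries, at 1118 to 1411 CPM, were below those of the other groups, while the ranges of the LPS groups, 1778 to 2768 CPM in scramble and 2387 to 2659 CPM in KD, overlapped. MT2A made up 76.4% to 81.8% of the sum in every library. The share of MT1X was 9.61% to 11.1% in scramble, 12.7% to 14.0% in scramble with LPS, 9.23% to 9.95% in KD and 9.47% to 11.6% in KD with LPS. It was highest in all 3 libraries of scramble with LPS. The share of MT1E was 7.82% to 8.25% in scramble, 6.50% to 8.96% in scramble with LPS, 8.96% to 10.3% in KD and 9.45% to 11.6% in KD with LPS. These shares are a description and were not tested.

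**Figure D3:**
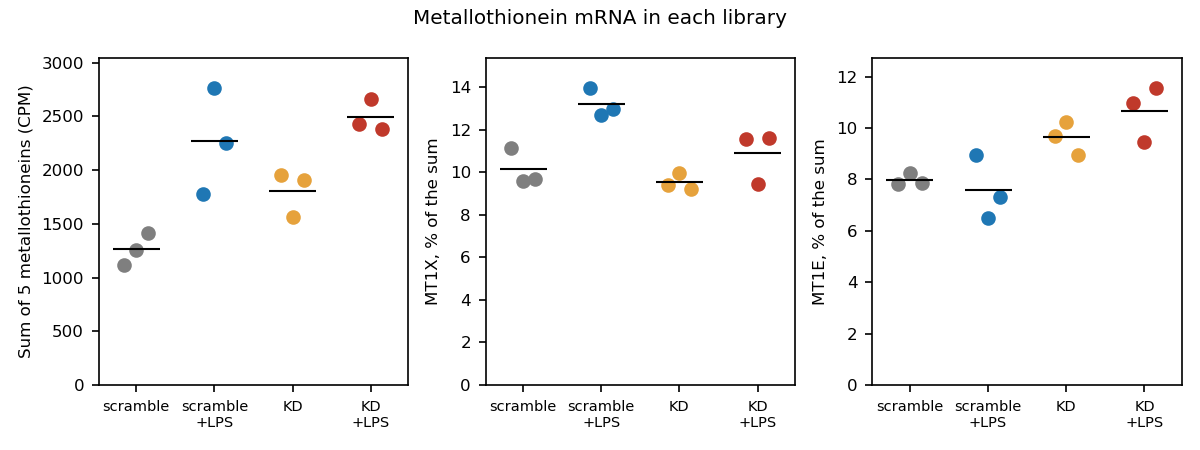
Left, summed CPM of the 5 metallothionein genes in each library, with the group mean as a line. Middle and right, the percentage of that sum that was MT1X and MT1E, where MT1X is highest in scramble with LPS, at 12.7% to 14.0%, and MT1E is highest on average in KD with LPS, at 9.45% to 11.6%.

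Ordered over the 4 groups, the genes fell into several patterns. SLC39A8 separated all 4 groups, at 24.0 ± 4.23, 40.5 ± 1.34, 75.01 ± 7.85 and 124 ± 4.93 CPM (SD, n = 3 each) in scramble, scramble with LPS, KD and KD with LPS. MT1E, in the same order of groups, was at 100.8 ± 12.1, 168 ± 10.6, 174 ± 14.98 and 265 ± 12.6 CPM, where the middle pair overlapped. SLC39A14 was set apart by LPS, at 289 ± 34.5 and 331 ± 8.99 CPM without it in scramble and KD and at 766 ± 76.4 and 980 ± 27.4 CPM with it. STEAP4 was set apart by KD, at 4.48 ± 1.42 and 8.60 ± 2.76 CPM in the scramble groups and at 50.2 ± 5.69 and 58.6 ± 6.56 CPM in the KD groups, with overlap within each pair and none between the pairs. TFRC ran the other way, highest in scramble at 391 ± 7.37 CPM and lowest in KD with LPS at 271 ± 21.3 CPM, which overlapped scramble with LPS.

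Among 79 other genes of metal handling, both rises and falls were called in each comparison. In KD without LPS, 14 of 64 tested were higher and 7 lower, against 12.1% and 15.1% of all genes. In KD with LPS, 17 of 63 were higher and 5 lower, against 12.7% and 14.2%. LPS in scramble gave 8 higher and 4 lower of 62, against 5.9% and 8.38%. LPS in KD gave 8 higher and 2 lower of 63, against 5.32% and 6.03%.

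Iron genes held the largest of these differences. STEAP2, a relative of STEAP4 that reduces iron and copper, rose in all 4 comparisons, with log2 fold changes of 1.26 and 1.39 for KD without and with LPS and of 0.88 and 1.00 for LPS in scramble and in KD (adjusted p from 8.7e-08 to 5.5e-05). HMOX1, heme oxygenase, which frees iron from heme, rose in KD by 1.18 without LPS (adjusted p = 1.7e-05) and by 0.90 with LPS (adjusted p = 5.2e-07). LPS in KD lowered it, with a log2 fold change of -0.69 (adjusted p = 8.0e-06). FLVCR2, a transporter of the FLVCR family, fell in KD, with log2 fold changes of -1.01 without LPS (adjusted p = 0.0025) and -1.96 with LPS (adjusted p = 1.4e-06), and rose with LPS in scramble by 1.48 (adjusted p = 0.00035). BMP6, a ligand that induces the iron hormone hepcidin in liver, rose by 1.24 in KD without LPS (adjusted p = 0.00014) and had a log2 fold change of -1.01 with LPS in KD (adjusted p = 0.0020).

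LPS raised SLC11A2, which carries iron and manganese into the cytosol, by 0.93 in scramble (adjusted p = 2.1e-05) and by 0.90 in KD (adjusted p = 5.8e-05) on the log2 scale. Looked up after its values were seen, SLC11A2 was also higher in KD than in scramble. That difference was 0.71 without LPS (adjusted p = 0.00030) and 0.69 with LPS (adjusted p = 0.00010). SLC25A28, a mitochondrial iron importer, rose with LPS by 0.74 in KD (adjusted p = 0.00022) and, looked up after its values were seen, by 0.79 in scramble (adjusted p = 0.00063). FTH1, the heavy chain of ferritin that stores iron, was picked out after its values were seen. It rose with LPS by 0.68 in scramble (adjusted p = 0.00013) and by 0.54 in KD (adjusted p = 2.0e-06), to 7156 ± 447 and 7507 ± 140 CPM (SD, n = 3 each).

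MTF1, the factor that binds MREs, stood higher in KD with LPS, by 0.84 on the log2 scale (adjusted p = 3.1e-05). Its other values were picked out after they were seen, at 0.63 in KD without LPS (adjusted p = 0.00051) and 0.49 with LPS in KD (adjusted p = 0.0043). With LPS in scramble its log2 fold change of 0.28 had an adjusted p of 0.081 and was not called. It was at 28.1 ± 2.24 CPM in scramble and 33.9 ± 2.68 CPM in scramble with LPS, and at 43.3 ± 3.14 and 60.7 ± 5.16 CPM in KD without and with LPS (SD, n = 3 each).

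Of the zinc importers other than SLC39A8 and SLC39A14, 9 were tested. In KD without LPS, 3 were higher and 2 lower, against 12.1% and 15.1% of all genes, and in KD with LPS 5 were higher and 2 lower, against 12.7% and 14.2%. The rises were looked up after their values were seen. Without LPS they were SLC39A3, SLC39A6 and SLC39A7, at log2 fold changes of 0.49, 0.38 and 0.28. With LPS they were the same genes with SLC39A1 and SLC39A13, from 0.30 (SLC39A1) to 0.73 (SLC39A3). The falls without LPS, of SLC39A4, with a log2 fold change of -0.63 (adjusted p = 0.027), and of SLC39A10, -0.54 (adjusted p = 0.041), kept their direction when single libraries were left out, at -0.78 to -0.52 and at -0.83 to -0.40, but not always their calls. For SLC39A4 the adjusted p was 0.056 to 0.090 without any of scramble replicates 1, 2 and 3 or KD replicates 1 and 2. For SLC39A10 it was 0.072 to 0.14 without any of scramble replicates 1, 2 and 3 or KD replicates 1 and 3, and without KD replicate 2 its log2 fold change was -0.83 (adjusted p = 0.00053). Under other processing choices the adjusted p reached 0.060 for SLC39A4 and 0.099 for SLC39A10. With LPS, HFE, which modulates iron uptake, fell by 0.57 in KD on the log2 scale (adjusted p = 0.011). SLC39A11 fell by 0.51 (adjusted p = 0.038), with an adjusted p of 0.054 to 0.13 without any of scramble LPS replicates 2 and 3 or KD LPS replicates 1, 2 and 3. Its adjusted p reached 0.079 under other processing choices. With LPS in scramble, STEAP1B fell by 0.74 (adjusted p = 0.014, and 0.052 without scramble replicate 2). HMOX1 and SLC39A13 fell by 0.40 (adjusted p = 0.040) and by 0.33 (adjusted p = 0.047), with an adjusted p of 0.070 to 0.16 for HMOX1 without any library but scramble replicate 3, and of 0.060 to 0.21 for SLC39A13 without any library but scramble LPS replicate 2. For SLC39A13 the adjusted p also reached 0.0996 under other processing choices.

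**Figure D4:**
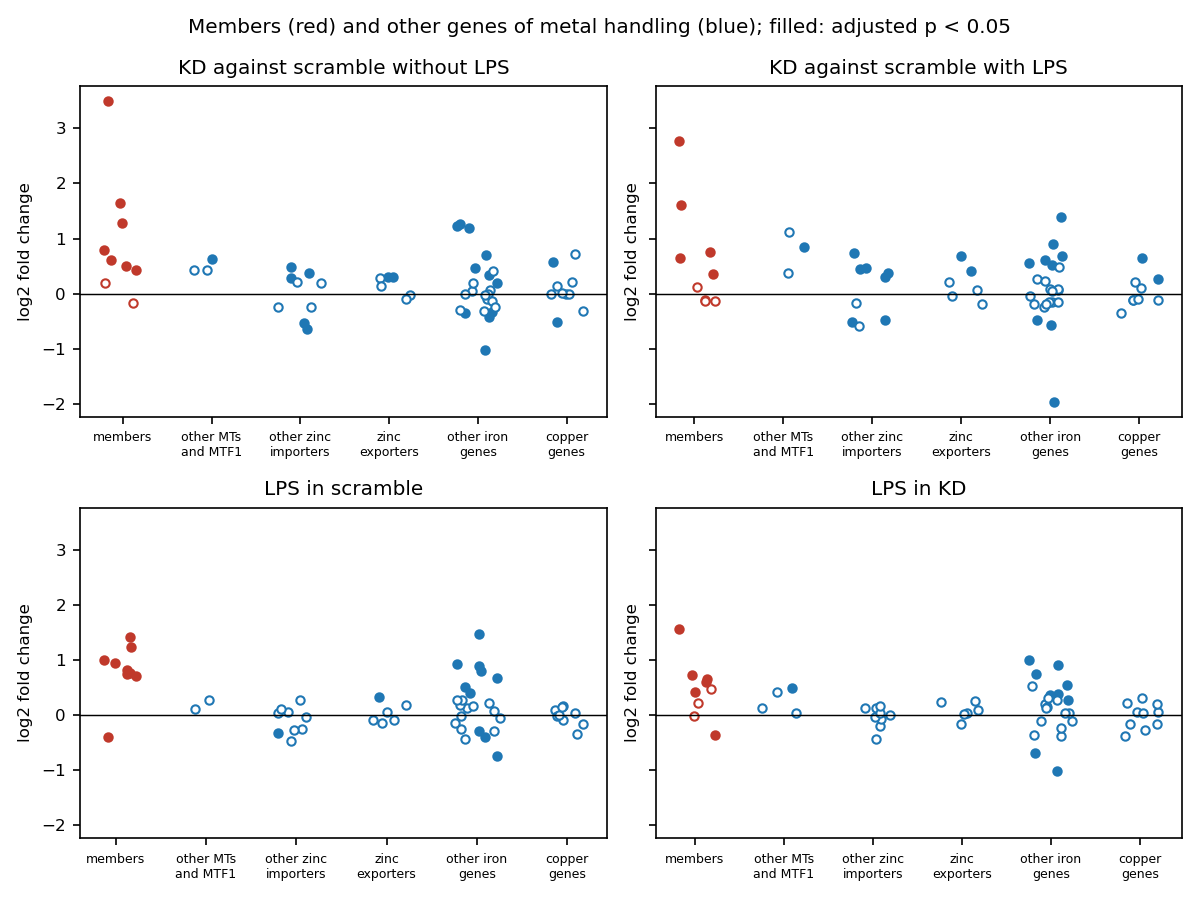
Log2 fold changes of 9 of the 10 genes (red, the members) and of the other tested genes of metal handling with at least 50 counts per library on average (blue) by list, in the 4 comparisons, 1 point per gene spread sideways for legibility. Filled points have an adjusted p under 0.05, and MT1F, at few counts, is not drawn. The red points reach 3.49 for KD without LPS, while the highest blue point drawn there is STEAP2 at 1.26, and the lowest is FLVCR2 at -1.01.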

How the data were processed

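RNA was extracted from day 14 adipocytes and libraries were prepared with a stranded mRNA kit. Per the labels and the methods, the authors called bases with bcl2fastq 2.19, pseudoaligned reads to human transcriptomes (GRCh38) with kallisto 0.44.0 and used DESeq2 1.32.0 (submitters' processing notes). The deposited values are estimated counts per gene, not normalized for depth or length, and the annotation release is not given in the sources used here. A row without a gene name, 0.235% to 0.306% of a library, was left out.

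In R 4.3.3, counts were rounded, and a fit kept genes whose libraries together held at least 10 counts. Then edgeR 4.0.16 (TMM scaling, quasi-likelihood F test, Benjamini-Hochberg adjustment over all genes) compared groups on their own 6 libraries and the interaction on all 12. A gene was called at an adjusted p under 0.05, and 2-fold is given where stated. The standard error is the log2 fold change divided by the square root of F. Median depth was 53.5, 40.8, 38.5 and 34.8 M counts (M, units of 1e6) in scramble, scramble with LPS, KD and KD with LPS. Intervals of counting error were not used, and the part of depth in the results of genes with few counts was not tested. Library replicates correlated at 0.971 to 0.986 (log2 CPM), and no pair was a duplicate. In the comparison of LPS in scramble, same-numbered libraries deviated together weakly (r of 0.33, 0.21 and 0.12), each best with its own number. The sample titles give replicate numbers and no pairing, so whether samples were paired is not known. The main fits used no pairing. The steps were tested on simulated data. There the share of false calls was above the nominal rate in each simulation, by DESeq2 more than by edgeR, and the accepted limits were set after this was seen, so calls close to the threshold are less certain than their adjusted p. Alternatives were DESeq2 1.42.0, other scalings and filters, all 12 libraries in 1 fit, a replicate block and each library left out.

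Positions come from the GENCODE annotation and promoters from RefSeq. Promoters of 6 of the 10 genes are reported. MT1E, MT1F and MT1M had no promoter entry, and SLC39A14 was left out of this step by choice. The genes and lists were chosen with earlier results of these data known. Of the 79 other metal genes the text names, per comparison, up to 3 genes per direction with the largest log2 fold change among called genes with at least 50 mean counts and no overlap, and some others marked as picked later. For each of 3 roles, the member with the widest range of group means was compared with all genes at 10 CPM or more for likeness. MT1F, whose range was wider but at few counts, was passed over for MT1E.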

Additional observations from a re-analysis of the deposited data

How the results depend on the processing

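Of 49 results for the 10 genes, 34 kept both direction and call under every alternative, and 5 lost a call, 4 gained one and 6 turned in direction under at least 1. The number of the 10 genes called for KD without LPS was 7, with 6 to 7 when a library was left out and 7 to 8 under the other alternatives. For KD with LPS it was 5 under each. For LPS in scramble it was 9, with 6 to 9 when a library was left out and 9 otherwise, and for LPS in KD it was 6, with 6 to 7 and 5 to 7. The interaction gave 0, with 0 to 1 when a library was left out and 1 by DESeq2 and 1 without a filter on low counts. The directions that turned, none of them called, did so when a library was left out: MT2A from -0.042 to 0.30 and MT1M from -0.29 to 0.016 for KD with LPS, MT1M from -0.20 to 0.11 for LPS in KD, and the interactions of SLC39A8 from -0.18 to 0.057, of TFRC from -0.021 to 0.11 and of MT1F from -2.15 to 1.60, all in log2. Among 28 results for other metal genes, 6 lost a call and 0 turned. With the replicate number as a block, 7, 5, 9 and 7 of the 10 genes were called in the 4 comparisons in the order above, the added one being SLC40A1 for LPS in KD. In the main fits 27.2%, 26.9%, 14.3% and 11.3% of all genes were called in these comparisons. The shares of all genes under each alternative are not given here. A changed number among the 10 genes therefore cannot be told apart from a setting that calls more or fewer genes in general. For LPS in scramble, where each library correlated best with its own number, the block changed no call among the 10 genes. In the other comparisons the r of same-numbered libraries ran from -0.30 to 0.33, and not every library correlated best with its own number. The causes were not tested. In scramble, MT1F had 0 to 3 counts, STEAP4 159 to 272, SLC40A1 187 to 310 and MT1M 296 to 406. The part of depth in the results of these genes was not tested.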

Other observations

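The genes whose levels over the 12 libraries were most like those of 3 of the metal genes are given as a description. Likeness was the root mean square difference of log2 CPM after each gene was centred on its own mean, over 8611 genes with at least 10 CPM on average, and no test was made.

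MT1E was closest to PER1, a clock gene that glucocorticoids induce, at 0.14, to OSER1 at 0.14 and to MTHFD2, an enzyme of mitochondrial folate metabolism, at 0.15. Many genes resembled it, since 32.2% of the candidates lay within 0.5 and the median was 0.57. SLC39A8 was closest to SLC1A3, a glutamate transporter, at 0.17, to TSC22D3, which encodes the glucocorticoid-induced leucine zipper, at 0.18 and to PID1 at 0.22, with 1.46% of candidates within 0.5. STEAP4 had few like it. FMO2, a flavin monooxygenase, was at 0.31, KCNK15, a potassium channel, at 0.40 and CADM3, a cell adhesion molecule, at 0.45, and 0.0813% of candidates lay within 0.5.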
